A study of Mus musculus with 8 samples.

Results

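The Hox genes were followed in cultured hepatoblasts as 37 named genes of the Hoxa, Hoxb, Hoxc and Hoxd clusters. They were chosen by gene symbol, and all of their probe sets that carry a single symbol were kept whatever their level. Of the 37 genes, 33 had such a probe set, which gave 48 probe sets of 45037 on the array without controls. Hoxa6, Hoxb8, Hoxc12 and Hoxd4 had none.

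The series holds 4 arrays labelled Bmi1 and 4 arrays labelled control, each group numbered 1 to 4. All cells carried the Ink4a-Arf-null genotype, also in the control group, and were Dlk-positive hepatoblasts from livers of embryonic day 14.5. After magnetic sorting and a wait of 12 to 18 h on collagen type IV they received Bmi1 or, in the control group, EGFP. The medium held 2 growth factors, HGF (50 ng/ml) and EGF (20 ng/ml). Flow cytometry at day 28 gave the cells that were measured, and the labels state that material from the equivalent of 10000 cells went through 2 rounds of amplification before an Affymetrix mouse array. The labels do not name the vector or promoter that drove the introduced gene. They give no number of embryos behind a culture. The question the design poses for these genes is whether forced expression of a Polycomb protein in cells without Ink4a-Arf went with another level of Hox transcripts.

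Hox genes encode homeodomain transcription factors that give cells their position along the body axis. Within each cluster the low-numbered (anterior) genes are used nearer to the head and the high-numbered (posterior) genes nearer to the tail, and genes that share a number in different clusters are paralogs. They are the best known targets of Polycomb repression, and Bmi1, a subunit of Polycomb repressive complex 1, is known for the axial skeleton changes of mice that lack or overexpress it, in which Hox domains shift. Among liver cells, Hox transcripts are mainly a feature of mesenchymal cells and blood progenitors, while trithorax proteins such as Kmt2a maintain Hox expression.

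Hox promoters are often rich in CpG dinucleotides, the sequence feature most often linked to Polycomb recruitment in mammals, so the bases before 3 of the start sites are shown. Hoxb4 held the largest difference between the groups, Hoxa5 the brightest Hox probe set, and Hoxa7 a probe set at background on all 8 arrays. The letters are the 250 bases upstream of the start site in RefSeq (GRCm38.p6), 5′ to 3′ on the strand of the gene, with every CG in capitals. They lie at chr11:96318017-96318266 on the plus strand for Hoxb4, and on the minus strand at chr6:52204588-52204837 for Hoxa5 and chr6:52218574-52218823 for Hoxa7.
Hoxb4: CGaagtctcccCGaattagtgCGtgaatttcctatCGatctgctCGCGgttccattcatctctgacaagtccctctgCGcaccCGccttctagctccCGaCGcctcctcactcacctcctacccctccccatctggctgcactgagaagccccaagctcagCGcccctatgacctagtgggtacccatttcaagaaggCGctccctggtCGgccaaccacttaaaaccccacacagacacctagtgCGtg
Hoxa5: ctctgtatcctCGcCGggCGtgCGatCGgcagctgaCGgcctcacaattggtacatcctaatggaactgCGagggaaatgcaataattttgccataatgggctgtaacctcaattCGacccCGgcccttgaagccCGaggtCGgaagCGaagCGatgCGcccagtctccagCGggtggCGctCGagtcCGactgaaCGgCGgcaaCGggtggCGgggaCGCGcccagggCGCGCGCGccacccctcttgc
Hoxa7: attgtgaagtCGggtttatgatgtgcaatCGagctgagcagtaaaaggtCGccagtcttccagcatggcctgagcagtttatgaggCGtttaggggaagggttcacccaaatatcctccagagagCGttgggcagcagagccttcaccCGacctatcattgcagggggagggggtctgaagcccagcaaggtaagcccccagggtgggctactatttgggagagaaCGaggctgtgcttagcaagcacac

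The Hoxb4 stretch held 14 CG, that of Hoxa5 28 and that of Hoxa7 7. Over the 24 stretches that matched 22 of the 37 Hox genes the median was 12.5 CG, with a range of 2 to 35, against a median of 6 over all 32841 RefSeq stretches of the same length. The motif CG, which reads the same on both strands, occurred at least once in 92.1% of them. The 6 genes with a sequence that were above background on 3 or more of the 4 arrays of a group had a median of 10 CG. Their range was 3 to 28. The 13 other measured genes with a sequence, in 15 stretches, had a median of 13 and a range of 2 to 35. Some of these others were above background on fewer arrays. The ranges of both sets of genes overlap, and the difference was not tested.

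The signal of Bmi1, the introduced gene, goes against the labels. The brighter Bmi1 probe set read 197 to 328 on the arrays labelled Bmi1 and 306 to 802 on the control arrays, and the other read 63.4 to 121 and 85.4 to 402. Both were lower in the arrays labelled Bmi1 in 4 of 4 pairs, with log2 differences of -1.43, -0.51, -0.82 and -0.67 in pairs 1 to 4 at the brighter one. Where these probes lie relative to the introduced sequence is not known here, so the labels could not be checked by this signal, and every direction below is that of the labels. Cdkn2a, of the deleted locus, was above background on 1 of 8 arrays. The hepatoblast and hepatocyte markers measured, 7 genes including Alb, Afp and the sorting marker Dlk1, were above background on all 8 arrays. Replicates 1 and 2 stand apart from replicates 3 and 4 by the BioC hybridisation control, which read 198 to 274 and 97.0 to 119, and both sets hold both groups equally.

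Signal from most Hox genes lay at the background of the arrays. The background of an array was the level that 95% of its 27 Bacillus control probe sets stayed under, and lay between 4.09 and 9.97 intensity units. No Bacillus probe set read above 12.2 on any array. A gene was counted as detected in a group when at least 1 of its probe sets was above background on 3 or more of the 4 arrays. By this count 5 Hox genes were detected in the arrays labelled Bmi1 and 6 in the control arrays, with 4 in both and 7 of 33 in either. These were Hoxa2, Hoxa3, Hoxa5, Hoxa9, Hoxb4, Hoxc6 and Hoxd8, and the other 26 measured genes were not detected in either group. In terms of probe sets, 7 of 48 (14.6%) passed in the arrays labelled Bmi1 and 8 of 48 (16.7%) in the control arrays, where 62.6% and 59.3% of all probe sets of the array did. Only 1 Hox probe set, of Hoxa5, was above background on all 8 arrays, as were 48.1% of all probe sets, and 11 were above it on none, as were 12.9% of all. The median Hox probe set had a mean intensity of 4.69, against 15.4 for all probe sets. A low signal can come from fewer cells that express a gene or from less RNA in each cell, and bulk arrays cannot tell these apart. Probe sets of the same gene also differed, and those of Hoxa3 had means of 2.38, 2.62, 9.65 and 14.6 in the arrays labelled Bmi1. A reading at background is therefore not by itself a low transcript level.

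**Figure D1:**
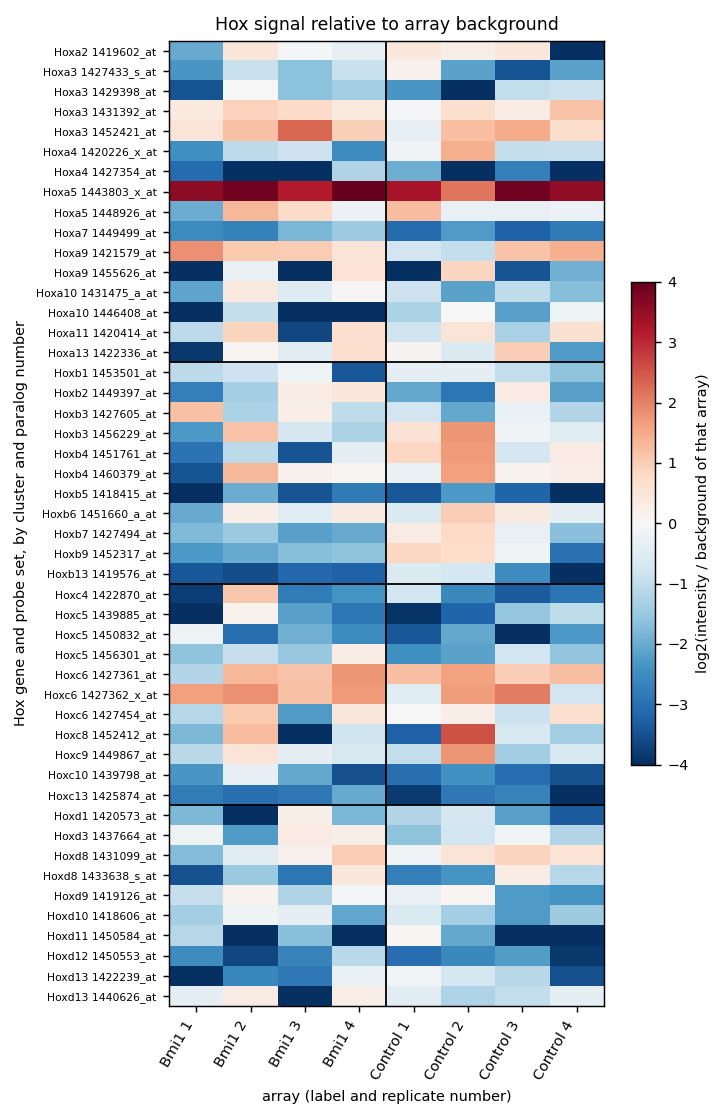
Signal of the 48 Hox probe sets (rows, by cluster and paralog number) on the 4 arrays labelled Bmi1 and the 4 control arrays (columns), as log2 of the intensity over that array's background. Red is above background and blue below, and the scale stops at 4 units either way. The row of Hoxa5 1443803_x_at is red on all 8 arrays, and most other rows are blue or mixed.

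The arrays differed widely in how many Hox probe sets they showed. In the arrays labelled Bmi1, 6, 22, 13 and 19 of 48 were above background in replicates 1 to 4, and in the control arrays 11, 21, 13 and 10. The ranges overlap. Replicate 2 had the highest number in both groups. Over all probe sets of the array the share above background varied far less, between 62.5% and 68.7%. The lowest number belongs to Bmi1 1, which also had the highest background of the 8 arrays, 9.97. Control 2 had the next highest background, 9.44, but 21 Hox probe sets above it. Of the Hox probe sets, 20 (41.7%) were brightest on replicate 2 among the arrays labelled Bmi1, as were 21.5% of all probe sets. Among the control arrays 28 (58.3%) were brightest on replicate 2, as were 35.7% of all.

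**Figure D2:**
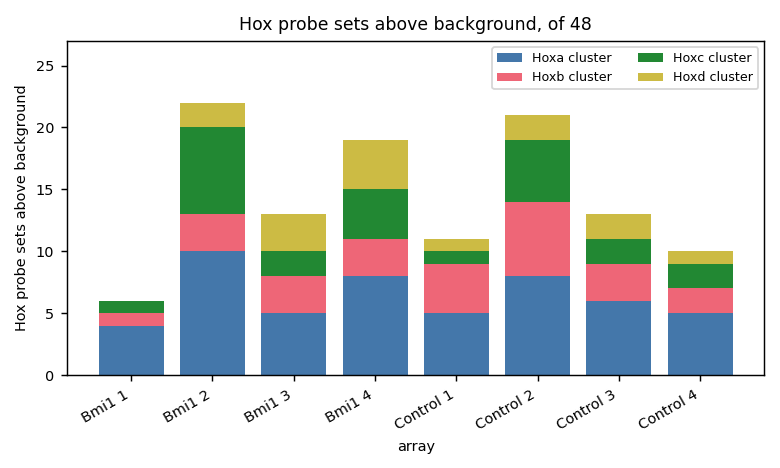
Number of Hox probe sets above background (y axis, of 48) on each array, stacked by cluster. Bmi1 2 with 22 and Control 2 with 21 stand highest, and Bmi1 1 with 6 is lowest.

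No Hox probe set differed between the groups after adjustment. With limma across all 45037 probe sets, 0 of 48 Hox probe sets had an adjusted p under 0.05, and the smallest was 0.66. Of all probe sets 0.00888% passed. With the replicate number as a block, limma again called 0, the smallest adjusted p being 0.165, while 0.646% of all probe sets passed. With replicates 1 and 2 against replicates 3 and 4 as a block limma called 0 as well, the smallest adjusted p being 0.285, against 0.309% of all. At an unadjusted p under 0.05 there were 5 Hox probe sets without a block (10.4%, against 4.83% of all probe sets) and 6 with the replicate block (12.5%, against 10.2%). All of these had the lower mean in the arrays labelled Bmi1. Standard errors ran from 0.17 to 0.73 on the log2 scale, and 22 of 48 probe sets had a 95% interval within 1 unit either way. That scale is log2(intensity + 3.78), which shrinks fold changes of dim probe sets, so these intervals do not exclude larger changes in signal. The remaining intervals reach past 1 unit, and a small number of arrays and dim signals limit what could be seen.

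The log2 difference, arrays labelled Bmi1 minus control arrays, had a median of -0.12 over the 48 Hox probe sets and of -0.045 over all. The mean was lower in the arrays labelled Bmi1 for 29 Hox probe sets and higher for 19, that is lower for 60.4%, against 56.0% of all. By replicate number, the Hox median was -0.16, -0.29, -0.32 and 0.060 in pairs 1 to 4, and 31, 31, 36 and 22 of the probe sets were lower. The medians of all probe sets in these pairs were 0.030, -0.055, -0.066 and -0.039. Pair 4 thus ran the other way from the other three. The groups did not overlap at 1 Hox probe set, lower in the arrays labelled Bmi1, where 1.37% of all probe sets did not overlap in that direction, and at 0 in the higher direction, against 1.83% of all.

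**Figure D3:**
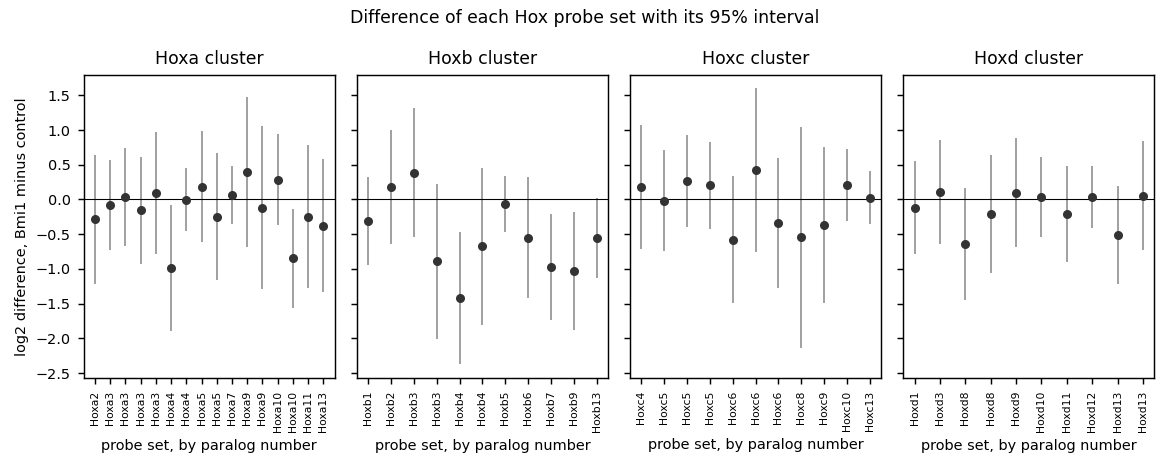
Log2 difference (y axis, arrays labelled Bmi1 minus control arrays) of each Hox probe set with its 95% interval from limma, by cluster and paralog number. In the Hoxb panel 9 of 11 points lie below 0, and the lowest is Hoxb4 at -1.42.

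The Hoxb cluster, on chromosome 11, held the largest differences. Of its 11 probe sets 9 had the lower mean in the arrays labelled Bmi1, with a median log2 difference of -0.56, against 20 of 37 in the other clusters. Of the 11, 9 were lower in at least 3 of the 4 pairs, against 15 of 37 in the other clusters, a share not counted over all probe sets. These 9 include Hoxb1, Hoxb5 and Hoxb13, which were at background on all 8 arrays. In all 4 pairs 4 of the 11 were lower, as were 11.2% of all probe sets of the array. This cluster was picked out after its values were seen, and 0 of its probe sets passed the adjusted test.

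Hoxb4 is best known for expanding blood stem cells when it is overexpressed. Its probe set 1451761_at read 1.29, 2.93, 0.372 and 4.06 on arrays Bmi1 1 to 4, against 11.8, 30.4, 3.98 and 8.65 on controls 1 to 4. All 4 arrays labelled Bmi1 were at background and 3 of 4 control arrays were above it, and only Bmi1 4 and control 3 overlap. The group means were 2.17 ± 1.65 and 13.7 ± 11.6 (SD, n = 4 each), the log2 difference was -1.42 (SE 0.43), and the limma adjusted p was 0.66, or 0.165 with the replicate block. With the background in place of the Bmi1 readings, the signal was 1.56-fold lower in the arrays labelled Bmi1. This is an estimate and not a lower limit, since control 3 kept its reading below background. The difference stayed between -2.03 and -0.70 over the settings tried and passed the threshold in none of them.

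The other Hoxb4 probe set, 1460379_at, is annotated to the same transcript accession and showed a smaller gap. It read 0.915, 14.9, 4.63 and 5.57 on arrays Bmi1 1 to 4, against 5.50, 29.7, 6.95 and 8.27 on controls 1 to 4. The groups overlap, and both had 3 of 4 arrays above background. The log2 difference was -0.68 (SE 0.52), lower in 4 of 4 pairs, and it was -0.28 without control 2, -0.31 without Bmi1 1 and -1.02 without Bmi1 2.

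Hoxb7 and Hoxb9, which pattern the thoracic region, were at background on all 4 arrays labelled Bmi1. Hoxb7 read 2.91, 2.21, 0.904 and 1.33 on arrays Bmi1 1 to 4, against 8.42, 16.3, 5.14 and 2.13 on controls 1 to 4 (log2 difference -0.98, SE 0.35, limma adjusted p = 0.825, or 0.322 with the replicate block). Hoxb9 read 2.04, 1.53, 1.27 and 1.77, against 11.8, 15.7, 5.75 and 0.866 (-1.03, SE 0.39, limma adjusted p = 0.877, or 0.382). For both genes controls 1 and 2 were above background and controls 3 and 4 were not, and control 4 lay within or below the range of the arrays labelled Bmi1. With the background in place of the Bmi1 readings, the signal was 1.10-fold lower for Hoxb7 and 1.11-fold lower for Hoxb9 in the arrays labelled Bmi1. These are estimates and not lower limits, since controls 3 and 4 kept their readings below background.

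Hoxb3, used in the hindbrain and pharynx, had probe sets that pointed in opposite directions. Probe set 1456229_at read 2.02, 13.4, 2.55 and 2.24 on arrays Bmi1 1 to 4, against 9.92, 32.3, 5.67 and 4.85 on controls 1 to 4 (log2 difference -0.89, SE 0.51, limma adjusted p = 0.9999, or 0.362 with the replicate block), lower in 4 of 4 pairs. Without control 2 the difference was -0.46. Probe set 1427605_at had a difference of 0.39 (SE 0.42), and its highest reading was 22.7 on Bmi1 1, against 2.57 to 4.87 on the other arrays labelled Bmi1 and 2.27 to 5.25 on the control arrays. Hoxb6 had a difference of -0.55 (SE 0.40) and Hoxb13, at background throughout, of -0.56 (SE 0.26). Hoxb1, the rhombomere 4 gene, and Hoxb5 were at background on all 8 arrays, and Hoxb2 was above it on 3.

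Of the 11 Hoxb probe sets, 1, 3, 3 and 3 were above background on arrays Bmi1 1 to 4, against 4, 6, 3 and 2 on controls 1 to 4. Controls 1 and 2 also had the highest sums of fibroblast and blood markers. The summed intensity of 16 fibroblast and stellate markers was 4039 to 9337 on the arrays labelled Bmi1 and 5554 to 17372 on the control arrays, and it read 17372 and 10173 on controls 1 and 2. Of the 16, 13 had a lower mean in the arrays labelled Bmi1 and 10 were above background on all 8 arrays, while Lrat, of stellate cells, was above it on no array. Reln, also of stellate cells, ran the other way, with 325, 176, 689 and 203 on arrays Bmi1 1 to 4, against 75.1, 69.3, 263 and 57.4 on controls 1 to 4 (log2 difference 1.58, limma adjusted p = 0.727, or 0.00648 with the replicate block). The 7 blood progenitor and erythroid markers measured summed to 42.5 to 71.3 on the arrays labelled Bmi1 and 45.3 to 123.8 on the control arrays, with 123.7 and 123.8 on controls 1 and 2. Of the 7, 5 were lower in the arrays labelled Bmi1 and 2 were higher. Tal1 read 10.3, 5.85, 1.11 and 0.596 on arrays Bmi1 1 to 4, against 23.7, 20.0, 17.6 and 14.4 on controls 1 to 4. The Tal1 difference was -1.65 (limma adjusted p = 0.380, or 0.0817 with the replicate block). The groups do not overlap at Tal1, as at 1.37% of all probe sets in that direction. Hba-a1, an alpha globin, read 2.94 to 8.29 on the arrays labelled Bmi1, against 8.39, 35.7, 2.76 and 15.1 on controls 1 to 4. Cd34, of blood progenitors and endothelium, read 2.10 to 17.7 on the arrays labelled Bmi1, against 61.8 on control 1 and 0.614 to 5.68 on the other controls. Cd34 was the largest part of the blood sum of 123.7 on control 1, so the high rank of that array rests largely on this gene. The 6 mesothelial markers, all with a lower mean in the arrays labelled Bmi1, summed to 1028 to 1400 there and to 806 to 2181 on the control arrays, with 2181 and 1096 on controls 1 and 2. The 7 macrophage markers summed to 666 to 2482 on the arrays labelled Bmi1 and 535 to 2798 on the control arrays. Of these 7, 6 had a lower mean in the arrays labelled Bmi1. Of the 10 endothelial markers Pecam1, Tek and Tie1 were above background on no array. The 10 summed to 270 to 378 on the arrays labelled Bmi1 and 137 to 267 on the control arrays, though 6 had a lower mean in the former. The largest part of these endothelial sums came from Egfl7, with 192 to 314 on the arrays labelled Bmi1 and 68.6 to 194 on the control arrays. Egfl7 was higher in the arrays labelled Bmi1 in 4 of 4 pairs (0.98, limma adjusted p = 0.777, or 0.0279 with the replicate block). The 5 biliary markers measured summed to 2484 to 3089 on the arrays labelled Bmi1 and 1453 to 2457 on the control arrays. These ranges narrowly miss overlapping. The largest part came from Krt7, with 1169 to 1905 on the arrays labelled Bmi1 and 915 to 1517 on the control arrays, which overlap. Of the 5, 4 had a higher mean in the arrays labelled Bmi1 and 1, Cftr, a lower mean. Epcam, of biliary and progenitor cells, was higher in 4 of 4 pairs (1.02, limma adjusted p = 0.538, or 0.0275 with the block). Control 1 also stands apart in a sign of RNA quality, its ratio of 3' to 5' Gapdh signal being 3.10, against 1.65 to 1.96 on the other arrays. The part of these cell types and of RNA quality in the Hoxb values was not tested. Within replicates 1 and 2 the Hoxb median difference was -0.955, and within replicates 3 and 4 it was -0.34. Without control 2 it was -0.28, with 8 of 11 probe sets lower, and without control 1 it was -0.75, with 9 lower.

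In the Hoxa cluster, on chromosome 6, 4 of 9 measured genes were detected in either group. Hoxa5, which is needed for lung and thoracic development, had the brightest Hox probe set of the array, 1443803_x_at. It read 118, 88.0, 36.9 and 102 on arrays Bmi1 1 to 4, against 65.8, 41.7, 94.0 and 79.8 on controls 1 to 4, means of 86.3 ± 35.1 and 70.3 ± 22.3 (SD, n = 4 each). The groups overlap, and the log2 difference of 0.18 had a 95% interval of -0.61 to 0.98. The suffix _x_at marks a probe set that may cross-hybridise, and the other Hoxa5 probe set, 1448926_at, read 2.54 to 15.3 and 5.17 to 15.7, above background on 2 and 1 arrays. Whether the bright signal is that of Hoxa5 alone therefore cannot be said from these values.

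Hoxa3, of the third pharyngeal arch and the thymus, was detected in both groups by 2 of its 4 probe sets. Probe set 1452421_at read 14.2, 13.9, 20.0 and 10.4 on arrays Bmi1 1 to 4, against 5.32, 21.9, 17.8 and 11.2 on controls 1 to 4. Probe set 1431392_at read 12.9, 11.7, 6.92 and 7.07, against 6.40, 14.8, 7.69 and 15.2. The groups overlap at both, with differences of 0.09 (95% interval -0.79 to 0.96) and -0.16 (-0.93 to 0.62). Each was above background on 7 of 8 arrays, the exception being control 1.

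Hoxa9, a gene of blood stem cells and leukaemias, was detected only in the arrays labelled Bmi1 by the count used here. Its probe set 1421579_at read 35.1, 12.7, 8.22 and 7.59 on arrays Bmi1 1 to 4, against 3.95, 4.89, 13.8 and 18.1 on controls 1 to 4. The pairs disagree, with log2 differences of 2.22 and 0.94 in pairs 1 and 2 and of -0.59 and -0.98 in pairs 3 and 4, and the overall difference was 0.40 (95% interval -0.68 to 1.48). It was 0.051 without Bmi1 1, 0.14 without control 1, 0.19 without control 2 and 0.68 without control 4. The other Hoxa9 probe set was above background on 1 array of each group.

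Hoxa2, which specifies the second pharyngeal arch, was detected only in the control arrays. It read 2.48, 8.50, 3.97 and 4.29 on arrays Bmi1 1 to 4, against 8.99, 11.1, 8.44 and 0.327 on controls 1 to 4, so control 4 was below every other array, and the difference was -0.29 (SE 0.42), or -0.69 without control 4 and -0.11 without Bmi1 1. The detection of Hoxa2 and Hoxa9 in a single group rests on readings close to background, and the difference in detection was not tested.

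Hoxa4 1420226_x_at was the Hox probe set whose groups did not overlap. It read 1.81, 2.95, 2.29 and 0.907 on arrays Bmi1 1 to 4, against 6.06, 25.1, 3.23 and 3.56 on controls 1 to 4. Of these 8 readings only that of control 2 was above background, and the log2 difference was -0.98 (SE 0.42, limma adjusted p = 0.992, or 0.374 with the replicate block). Without control 2 it was -0.54. The other Hoxa4 probe set read between 0.232 and 2.34 on all arrays and had a difference of -0.00079 (SE 0.21). Hoxa10 1446408_at, of the lumbar region and uterus, read 0.438, 3.15, 0.182 and 0.239 against 2.78, 9.53, 1.40 and 5.86 on the controls (-0.85, SE 0.32, limma adjusted p = 0.883, or 0.278 with the replicate block). Its other probe set pointed upwards, at 0.29 (SE 0.30). The posterior genes Hoxa11 and Hoxa13, of limb and urogenital development, were each above background on 2 arrays of each group, and Hoxa7 was at background on all 8.

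**Figure D4:**
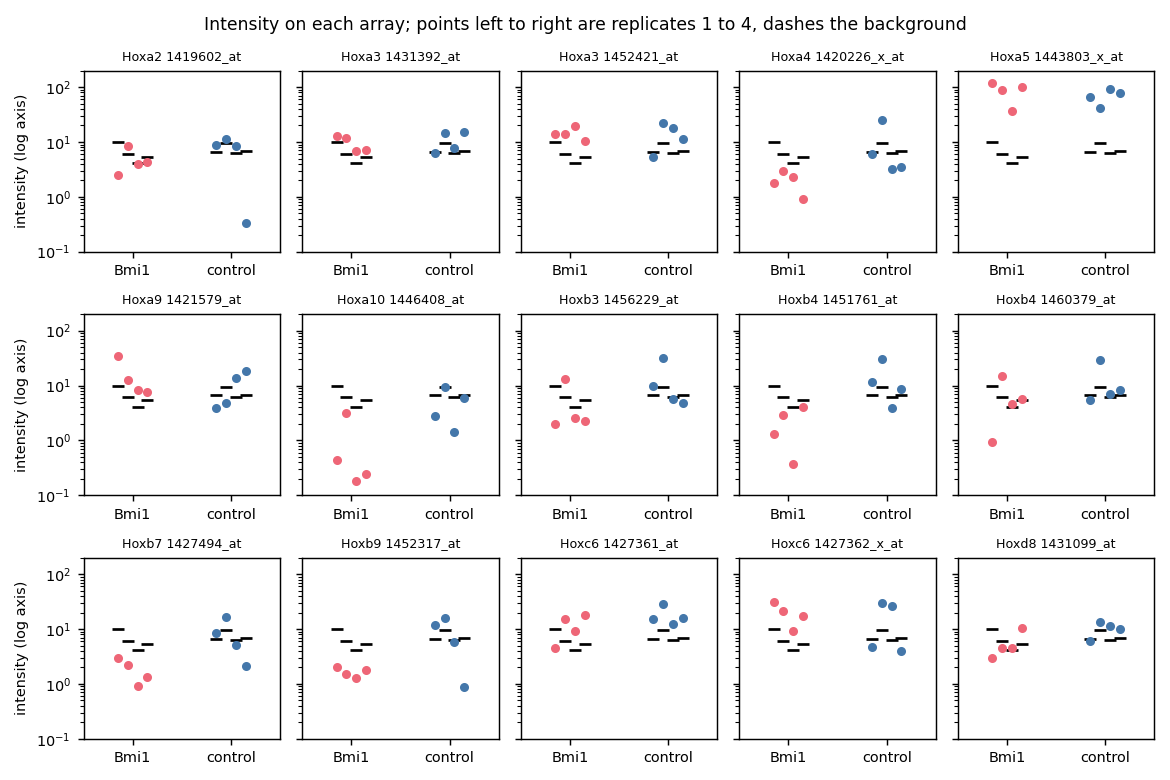
Intensity (y axis, log scale) of the 15 Hox probe sets that were detected in a group or had the smallest p, on each array labelled Bmi1 (red, left) and each control array (blue, right), with points ordered by replicate number and each array's background as a dash. Hoxb4 1451761_at, Hoxb7 and Hoxb9 lie below the dashes on all 4 arrays labelled Bmi1, and Hoxa5 1443803_x_at lies above them on all 8 arrays.

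In the Hoxc cluster, on chromosome 15, Hoxc6 was the 1 gene of 7 that was detected, and it was detected in both groups. Hoxc6, of the thoracic region and mammary gland, read 4.43, 15.5, 9.06 and 18.3 at 1427361_at on arrays Bmi1 1 to 4, against 15.3, 28.8, 12.5 and 15.9 on controls 1 to 4 (log2 difference -0.58, 95% interval -1.49 to 0.33). Its probe set 1427362_x_at read 31.2, 21.5, 9.31 and 17.4, against 4.78, 30.1, 26.2 and 3.97 (0.43, interval -0.75 to 1.60). With 1 array left out, the second difference ran from 0.096 without control 4 and 0.098 without control 1 to 0.76 without control 2, and the first was -0.26 without Bmi1 1. The groups overlap at both, and the probe sets point in opposite directions. Hoxc8 and Hoxc9, known from thoracic vertebrae and spinal motor neurons, were each above background on replicate 2 alone in both groups. Hoxc8 read 14.5 on Bmi1 2 and 54.8 on control 2, with 0.152 to 3.11 and 0.714 to 4.03 on the other arrays of each group. Hoxc9 read 8.83 and 32.3 on these arrays, and 3.13 to 4.70 and 2.40 to 4.42 on the others. Hoxc8 and Hoxc9 were picked out after their values were seen. Hoxc10 and Hoxc13 were at background on all 8 arrays, and Hoxc4 and Hoxc5 were above it in at most 1 array of a group at any probe set.

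In the Hoxd cluster, on chromosome 2, Hoxd8 was the 1 gene of 8 that was detected, in the control arrays. It read 3.02, 4.45, 4.57 and 10.5 at 1431099_at on arrays Bmi1 1 to 4, against 6.05, 13.4, 11.6 and 9.90 on controls 1 to 4 (log2 difference -0.64, 95% interval -1.45 to 0.17). The groups overlap through Bmi1 4. The posterior genes Hoxd10 and Hoxd12 were at background on all 8 arrays, and Hoxd11, Hoxd13, Hoxd3, Hoxd9 and the anterior Hoxd1 were above it on at most 2 arrays at any probe set. Over the cluster the median difference was -0.041, with 5 probe sets higher and 5 lower.

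By place along the body axis, 2 of 7 anterior genes (numbered 1 to 3), 4 of 12 central genes (4 to 8) and 1 of 14 posterior genes (9 to 13) were detected in either group. The median log2 differences were -0.080 for anterior, -0.23 for central and -0.12 for posterior genes. These are descriptions of few dim probe sets, and no difference between them was tested.

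Hoxb5os, an antisense transcript of the Hoxb cluster picked out after its values were seen, was also highest on replicate 2 in both groups. It read 6.11, 22.4, 8.20 and 11.4 on arrays Bmi1 1 to 4, against 8.73, 27.4, 11.04 and 11.8 on controls 1 to 4. It was above background on 7 of 8 arrays and had a log2 difference of -0.28, while the Hoxb5 probe set itself was at background on all 8.

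Partners and regulators of Hox proteins, and neighbours of the clusters, gave 7 lists with 77 measured genes. Limma called 0 of them without a block, where 0.00888% of all probe sets passed, and 1 with the replicate block, where 0.646% did. The lists hold 20, 8, 25, 34, 31, 20 and 24 probe sets, so 1 called probe set is close to that share. TALE homeodomain proteins (Pbx, Meis and Pknox), which bind DNA together with Hox proteins, were above background in at least 1 group for 7 of 8 genes. Meis1, a leukaemia partner of Hoxa9, was picked out outside the rule for named genes. Its probe set 1450992_a_at read 57.8, 93.0, 57.5 and 41.3 on arrays Bmi1 1 to 4, against 127, 94.3, 55.8 and 63.2 on controls 1 to 4 (log2 difference -0.45, SE 0.30). It was above background on all 8 arrays. The TALE probe sets with the smallest p were those of Meis3 (0.62, limma adjusted p = 0.482 with the replicate block) and Meis2 (-0.60, 0.385).

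The Polycomb and trithorax genes were above background almost throughout. All 15 measured genes of Polycomb complex 1 and all 10 of complex 2 were above background in at least 1 group, with medians of 0.078 and 0.060. Cbx8, a chromodomain subunit, had the smallest p of complex 1 without the block (-1.01, limma adjusted p = 0.694), on dim readings of 0.798 to 3.12 in the arrays labelled Bmi1 and 2.39 to 10.7 in the control arrays. The brighter Cbx8 probe set pointed the other way (0.54, SE 0.32), higher in 4 of 4 pairs. With the block the smallest was that of Bmi1 (-0.86, 0.0547). In complex 2 the smallest p belonged to Phf19 (-0.61) without the block and to the histone chaperone Rbbp4 with it (0.58, limma adjusted p = 0.326). All 11 trithorax and H3K27 demethylase genes were above background, and their median difference was -0.042. Men1, a cofactor of Kmt2a, was higher in 4 of 4 pairs at 1416347_at (0.52, limma adjusted p = 0.184 with the replicate block), and Ash2l had the smallest p without it (0.86).

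Of 15 retinoic acid pathway genes 10 were above background, with a median of 0.039. Retinoic acid is the classical inducer of anterior Hox genes. The retinoid-degrading enzyme Cyp26a1 had the smallest p without a block (-1.15, SE 0.52, limma adjusted p = 0.321 with the replicate block), and the retinal dehydrogenase Aldh1a1 the smallest with it (-1.08, 0.232), lower in 4 of 4 pairs. Of 6 ParaHox and Cdx genes 2 were above background. Pdx1, the pancreas and duodenum factor, read 2.80, 1.23, 2.48 and 3.998 on arrays Bmi1 1 to 4, against 4.24, 17.7, 11.3 and 21.1 on controls 1 to 4 (-1.37, SE 0.40, limma adjusted p = 0.609, or 0.186 with the replicate block). The groups do not overlap, as at 1.37% of all probe sets in that direction, but the arrays labelled Bmi1 were all at background.

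Among the genes that flank the Hox clusters, Skap2 was lower in the arrays labelled Bmi1. This signalling adaptor gene lies beside the anterior end of the Hoxa cluster. Its probe set 1418895_at read 250.2, 292, 157 and 204 on arrays Bmi1 1 to 4, against 457, 411, 316 and 316 on controls 1 to 4. The groups do not overlap there, as at 1.37% of all probe sets in that direction. The log2 difference was -0.78 (SE 0.21), and limma gave an adjusted p of 0.514 without a block and 0.0383 with the replicate block. With replicates 1 and 2 against 3 and 4 as the block the adjusted p was 0.0583. The other Skap2 probe sets had differences of -0.78 and -0.64 and did not pass, with adjusted p of 0.0576 and 0.45 with the block. All 3 were lower in 4 of 4 pairs. Skap2 was the 1 call among 12 flanking genes and in all 7 lists, near the 0.646% of all probe sets that passed with the block. Of the 12 flanking genes 8 were above background. The Evx1 and Evx2 genes, homeobox neighbours of Hoxa13 and Hoxd13, were above background on 1 and 4 of 8 arrays.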

How the data were processed

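Values are those of 8 Affymetrix arrays, and the number of arrays limits the precision. Each deposited table column holds 45101 probe set intensities, linear rather than log2, and no software is named (not given in the sources used here). A mean that leaves out the lowest and highest 2% came to 100 on every array, so the deposited intensity carries a global scaling. Gene names are those of GEO's platform table, brought up to date by Entrez number with RefSeq (GRCm38.p6). Without 64 controls, 34945 probe sets had 1 symbol, 932 several and 9160 were unnamed here.

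The deposited intensities were tested as log2(intensity + 3.78). The added constant is the overall median over 4 and shrinks fold changes of dim genes. Array centring used the median of 27022 probe sets, those past the 40th percentile in mean intensity. The largest log2 gap between array medians was 0.70 over all probe sets and 0.25 over these. The comparison used R 4.3.3 and limma 3.58.1, with moderated variances that follow the mean level. Two-sided p-values were adjusted by the Benjamini-Hochberg method over 45037 probe sets, a threshold of 0.05 was applied, and the fit was tested on simulated data. The main model has no block. To see whether replicate numbers pair the arrays, deviations from group means were correlated within each number. This gave 0.55, 0.32, 0.47 and 0.63, all over 0.1, so the numbers were taken as pairs. The highest correlations with a control array of another number were 0.16, 0.40, 0.39 and 0.31, also over 0.1. In pair 2 the other number gave the higher value, and in pairs 1, 3 and 4 the same number did. A level over 0.1 therefore does not tell pairs from other arrays. Counts by pair and the replicate block rest on the numbering, and a pairing of the cultures is not established. The labels do not say that the arrays of a group came from separate cultures or animals, so p-values measure only the spread between these arrays, which may be technical.

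Named were Hox probe sets detected in a group or among the 5 smallest p of either model, and of each list the called genes or the smallest p. The members and lists were chosen with earlier results of these data known. Alternatives were blocks, array scaling, pseudocount, level filter, 1 probe set a gene, array weights, no trend, background level and leaving out arrays.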

Additional observations from a re-analysis of the deposited data

Results flagged for a closer look

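At the 15 named Hox probe sets 30 groups of 4 arrays were examined for a single reading set apart, by Dixon's ratio of the gap beside the extreme reading to the whole range on the normalised log2 scale. It passed its critical value in 3 groups, and chance alone gives about 1 in 20. The ratio was 0.865 for Hoxa2, where control 4 read lowest of the control arrays. For Hoxa10 1446408_at it was 0.838, Bmi1 2 being above the other arrays labelled Bmi1. For Hoxb9 it was 0.984, Bmi1 4 being above the others of its label after centring, with all 4 at background.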

How the results depend on the processing

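In 24 other settings, 3 of them added after the data were seen, limma called 0 Hox probe sets, with 0 to 7 at an unadjusted p under 0.05. Over all probe sets the calls, 4 in the model without a block, were 291 with the replicate block, 302 to 396 with it and another scaling, 139 with replicates 1 and 2 against 3 and 4 as the block, 28 with array weights and 0 to 13 in the others. The median Hox difference ran from -0.22 to 0.0041, and from -0.22 to -0.038 with 1 array left out. It was 0.0041 with quantile normalisation, and every change was smaller than the spread between arrays (SD 0.28). The Hoxb count, an alternative added after the data were seen, ran from 8 to 10 lower probe sets of 11, or was 8 of 9 with 1 probe set a gene. When every probe set was used for centring, the median of all differences was 0.055 in place of -0.045, and the Hoxb median was -0.46. The replicate block changed no Hox call and added 1 flanking gene, Skap2. For 15 named probe sets, 336 of 348 values kept their sign and 0 passed. The sign turned within replicates 3 and 4 for Hoxa2 (0.12), Hoxa3 1452421_at (-0.0036), Hoxa5 1443803_x_at (-0.50) and Hoxa9 1421579_at (-0.79). It turned within replicates 1 and 2 for Hoxa3 1431392_at (0.18), and with array weights for Hoxa3 1452421_at (-0.058), Hoxa5 (-0.11) and Hoxa9 (-0.14). With an array left out it turned without control 4 for Hoxa3 1431392_at (0.0045), without Bmi1 3 or control 1 for Hoxa3 1452421_at (-0.066 and -0.22), and without control 2 for Hoxa5 (-0.053). With an array left out, Hoxa3 1431392_at ran from -0.34 to 0.0045 and Hoxa5 from -0.053 to 0.51. The causes were not tested. Genes detected were 4 and 4 (Bmi1 and control) with the highest Bacillus probe set as background, 7 and 9 with the 90th percentile, and 4 and 2 on all 4 arrays. With an array left out, where 2 of 3 arrays suffice, they were 6 to 13 in the arrays labelled Bmi1, 13 without Bmi1 1, and 8 to 11 in the control arrays. Most Hox probe sets lie so near background that small differences could not be seen, and larger ones could also go uncalled. At Hoxb4 1451761_at the means were 2.17 in the arrays labelled Bmi1 and 13.7 in the control arrays, with a limma adjusted p of 0.66.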
